A study of Mus musculus with 12 samples.

Results

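The distal colons of all 6 mice labelled litter B were compared with those of all 6 mice labelled litter A, which together are the 12 mice of the series. RNA had been taken from full-thickness tissue, so that epithelium, lamina propria, vessels, nerves, muscle and any attached fat were measured together. Each litter held 3 Spry2FF mice, which carry a homozygous floxed Sprouty2 gene and no Cre, and 3 Spry2IEKO mice, which carry the same floxed alleles with Vil1::Cre. The villin promoter drives Cre in the intestinal epithelium only, so that the muscle, vessels and connective tissue of Spry2IEKO mice keep an intact gene. The labels give the age as 6 weeks in one protocol and as 8 weeks in another. Each litter held 4 females and 2 males, but both males of litter A were Spry2FF mice, while litter B had 1 male of each genotype. The libraries of litter A all have names that start with 22819, and those of litter B have names that start with 11019, so that litter and library batch coincide and cannot be told apart in any result here.

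Spry2, the deleted gene, measured 22.8 to 32.3 normalised TPM (transcripts per 1000000, scaled between mice) in the 6 Spry2FF mice and 18.5 to 22.5 in the 6 Spry2IEKO mice, with no overlap. Eif2s3y, which lies on the Y chromosome, measured 66.8 to 82.8 in the 4 mice labelled male and at most 0.536 in the 8 females. Vil1 and Muc2, of the epithelium, and Myh11, of smooth muscle, were present in every mouse at 236 or more, 727 or more and 244 or more. Values summed to between 918816 and 1017234 per mouse in litter A and to between 991618 and 1069158 in litter B (exact permutation test, two-sided, p = 0.0195), and the read depth is unknown. Genes above 0 numbered 19062 to 19753 in litter A and 18655 to 19699 in litter B (exact permutation test, p = 0.883). Fat differed within litter A. The 19 genes of an adipocyte list summed to 1394 and 2419 in 2 Spry2IEKO mice of litter A and to between 262 and 431 in the other 10 mice. Many of the counts below are therefore also given without these 2 mice.

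The wall of the colon holds more than its epithelium. Endothelial cells line its blood and lymph vessels, are joined by vascular cadherin and claudins, and are kept alive by receptors for vascular endothelial growth factors and angiopoietins. Fibroblasts lay down collagens and elastic fibres and send Wnt and BMP signals to the crypts. In every cell, introns are removed by the spliceosome, and SR proteins, together with the CLK kinases that phosphorylate them, set which introns and exons are kept. Many of these regulators hold introns of their own that stay in a nuclear transcript and are spliced on demand.

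Between litters, endothelial and fibroblast genes were lower in litter B and genes of splicing regulation were higher. Of 15880 genes with a mean of at least 0.5 normalised TPM, 696 passed an adjusted p of 0.05 (limma with genotype as a covariate), which is 4.38% of those tested. Of these, 171 rose (1.08%) and 525 fell (3.31%) in litter B. The 6 values of one litter all lay above the 6 of the other for 591 genes (3.72%), in 467 with litter A above (2.94%) and in 124 with litter B above (0.781%), and 412 genes met both criteria. Most differences were small, with a median log2 of 0.45 among genes that rose and -0.43 among those that fell. Only 34 genes fell by more than 1 on the log2 scale, and 11 rose by that much. The median over all genes was -0.05. Without the 2 mice with the most fat, 17 genes passed, of which 15 were among the 696, and 2449 had an unadjusted p under 0.05, against 3475 with all mice. Leaving out 1 mouse at a time gave between 180 calls, without litter A replicate 4, and 957, without litter B replicate 4. Among the 15 were Cdh5, Ntn1, Tcf21, B3galt5, Arglu1, Prpf38b and Fnbp4.

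The direction was the same in both genotypes for all 696 genes, which were called from these mice together. Over the 15418 genes compared between litters in each genotype alone, 67.5% had the same sign. Among 683 genes with an unadjusted p under 0.01 in Spry2FF mice alone, 91.4% had the same sign in the Spry2IEKO mice, which share no animal with them. For the 497 genes chosen the same way in Spry2IEKO mice the share was 86.9%. In either genotype alone, with 3 mice against 3, only 1 gene passed the adjusted threshold. A principal component analysis gave 26.3%, 13.5% and 10.5% of the variance to the first 3 components, and on none of them did the litters separate.

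**Figure D1:**
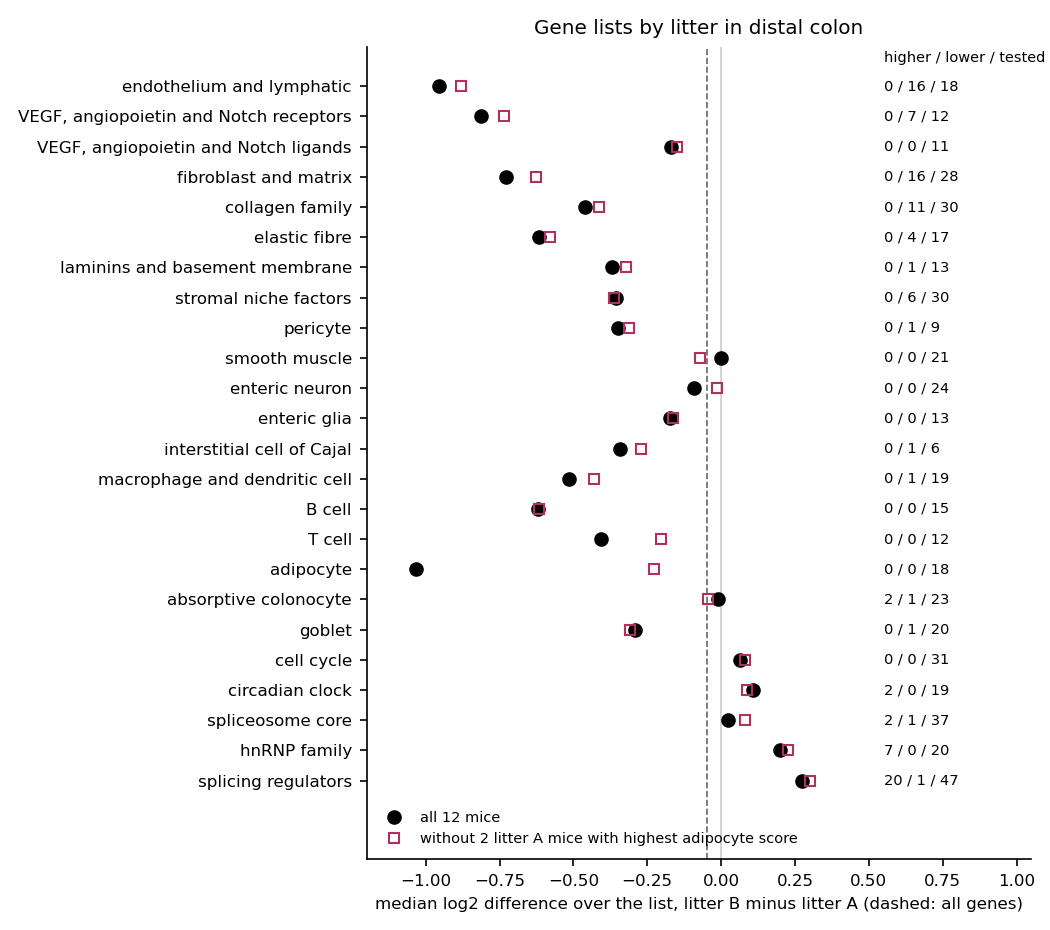
Median log2 difference, litter B minus litter A, for 24 lists of genes (points, all 12 mice; open squares, without 2 mice of litter A), with the counts called higher, called lower and tested at the right and the median of all genes as a dashed line. The adipocyte list, the endothelial list, the vascular receptors and the fibroblast and matrix list lie lowest. The adipocyte list moves from -1.03 to -0.23 without the 2 mice, and the splicing regulators lie highest at 0.27.

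Endothelial genes had the largest share of called members among the cell types listed. All 18 genes of a list of blood and lymph endothelium were lower in litter B, 16 of them past the threshold, against 3.31% of all genes, and for 11 the litters did not overlap, against 2.94% of all genes. Their median log2 difference was -0.96, with -0.93 in Spry2FF and -0.95 in Spry2IEKO mice, and the median of all genes was -0.05. Summed over the list, the level ran from 179.8 to 352 normalised TPM in litter A and from 65.4 to 167 in litter B. Without the 2 mice with the most fat all 18 were still lower, with a median of -0.88 and 17 at an unadjusted p under 0.05, but only Cdh5 passed the adjusted threshold. Leaving out litter A replicate 4, 1 of these 2 mice, left 5 calls, and no other single mouse left fewer than 7. In whole tissue, fewer cells of a type and less RNA per cell cannot be told apart.

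For 4 receptors the 250 bases before the start of transcription are shown (RefSeq, GRCm38.p6, on the strand of the gene), because these genes moved together and encode the receptors through which endothelium is maintained. Capitals mark AGGAAG, a longer form of the GGAA core bound by ETS factors, which are known regulators of endothelial genes, or its reverse complement CTTCCT. Other sequences with the GGAA core, which the windows of Kdr and Tek also hold, were not marked or counted. Flt1 lies at chr5:147726012-147726261 on the minus strand, Kdr at chr5:75978456-75978705 on the minus strand, Tek at chr4:94739039-94739288 on the plus strand and Eng at chr2:32646345-32646594 on the plus strand.
Flt1: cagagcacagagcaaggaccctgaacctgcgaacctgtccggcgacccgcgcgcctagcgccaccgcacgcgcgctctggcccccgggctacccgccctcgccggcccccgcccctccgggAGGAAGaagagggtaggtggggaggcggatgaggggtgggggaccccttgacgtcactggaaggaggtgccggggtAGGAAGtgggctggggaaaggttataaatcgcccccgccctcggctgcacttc
Kdr: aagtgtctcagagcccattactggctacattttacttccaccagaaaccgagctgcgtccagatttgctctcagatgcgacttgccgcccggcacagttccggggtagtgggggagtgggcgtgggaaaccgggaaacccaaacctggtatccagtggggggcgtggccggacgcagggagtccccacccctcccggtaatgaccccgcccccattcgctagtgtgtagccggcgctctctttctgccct
Tek: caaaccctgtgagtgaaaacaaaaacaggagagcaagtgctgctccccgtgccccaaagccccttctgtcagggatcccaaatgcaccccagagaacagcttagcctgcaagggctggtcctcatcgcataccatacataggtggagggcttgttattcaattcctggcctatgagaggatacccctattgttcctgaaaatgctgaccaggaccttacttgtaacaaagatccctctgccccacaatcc
Eng: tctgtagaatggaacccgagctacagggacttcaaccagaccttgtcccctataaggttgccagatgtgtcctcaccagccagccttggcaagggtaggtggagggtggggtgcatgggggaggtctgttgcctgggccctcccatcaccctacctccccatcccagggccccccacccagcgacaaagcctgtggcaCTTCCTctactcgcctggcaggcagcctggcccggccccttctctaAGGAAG
The motif stood at 2 places in Flt1, once on each strand in Eng, and in neither Kdr nor Tek. On either strand it was present in 10 of the 19 called endothelial genes that the promoter table holds (52.6%), in 17 of 35 endothelial genes tested (48.6%), in 8 of 42 splicing regulators (19%) and in 28.2% of the 11299 tested genes with a promoter entry. A match describes the letters of these windows and no binding was measured.

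Genes of endothelial junctions were among those called. Cdh5 (ENSMUSG00000031871, chromosome 8, 104101625 to 104144511, GRCm38), which encodes vascular cadherin, measured 4.86 to 7.82 (median 5.99) in litter A and 2.27 to 3.24 (median 2.42) in litter B. Every mouse of litter A was above every mouse of litter B, and the gene fell by 1.12 on the log2 scale (standard error 0.129, adjusted p = 0.00497), to a level 2.17-fold lower. Cldn5, the claudin of endothelial tight junctions, ran from 3.67 to 6.90 (median 3.88) in litter A and from 0.769 to 2.86 (median 1.04) in litter B. The highest value belonged to 1 mouse of litter A with much fat, but the other 5 lay above litter B as well, and the log2 difference was -1.36 (standard error 0.279, adjusted p = 0.0241). Pecam1, the adhesion molecule CD31, measured 20.2 to 42.6 (median 21.9) against 9.06 to 15.0 (median 11.6), a log2 difference of -1.03 (adjusted p = 0.0152). Esam, an adhesion molecule of the same junctions, also fell, by 0.73 on the log2 scale (adjusted p = 0.0275), and its litters lay next to each other, with 7.57 as the lowest value of litter A and 7.55 as the highest of litter B. Pecam1 and Esam were chosen after their values were seen.

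The receptors of growth factors that act on vessels were lower, while their ligands were not called. Of 12 receptors for VEGF, angiopoietin, apelin and Notch ligands, 7 fell, against 3.31% of all genes, and none rose. The list was again written with the values known, and its median was -0.81. None of the 12 was called without the 2 mice with the most fat, when 8 had an unadjusted p under 0.05. Of 11 ligands limma called none, 2 had an unadjusted p under 0.05, and the median was -0.17. The difference between receptors and ligands was not tested. Kdr, the main signalling receptor for VEGF-A, measured 3.50 to 4.72 (median 3.93) in litter A and 1.40 to 3.07 (median 1.66) in litter B, and fell by 0.94 on the log2 scale (standard error 0.155, adjusted p = 0.0133). The litters of Kdr did not overlap, nor did those of Flt1, Tek, Tie1, Nrp1 and Aplnr. Tek, the receptor of angiopoietins, ran from 2.54 to 5.45 (median 3.42) in litter A and from 1.09 to 2.03 (median 1.68) in litter B, a log2 difference of -0.94 (adjusted p = 0.0148). Tie1, its partner receptor, differed by the same amount (adjusted p = 0.00952) and varied little inside litter A, from 3.53 to 4.12. Nrp1, a co-receptor of VEGF, fell by 1.02 (adjusted p = 0.00734), Aplnr, the apelin receptor, by 0.99 (adjusted p = 0.0164) and Flt1, a receptor that can act as a decoy for VEGF, by 0.69 (adjusted p = 0.0321). On the side of the ligands, Vegfa measured 54.7 to 87.3 in litter A and 62.1 to 126 in litter B, with a log2 difference of 0.34 (adjusted p = 0.308). Dll4, a Notch ligand of sprouting tips, differed by -0.54 (adjusted p = 0.114) and Angpt1, a ligand of Tek, by -0.44 (adjusted p = 0.122). Notch1, which epithelium and vessels share, lay in the other direction at 0.64 (adjusted p = 0.131).

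**Figure D2:**
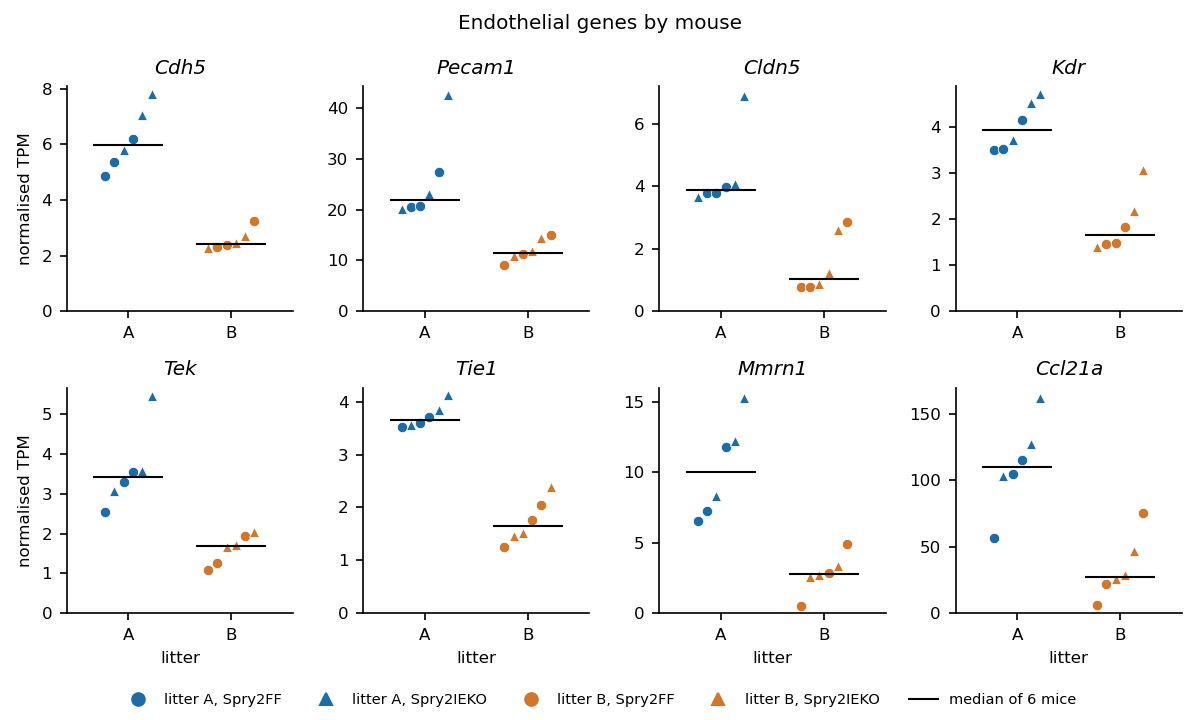
Normalised TPM of 8 endothelial genes in each mouse, by litter (circles, Spry2FF; triangles, Spry2IEKO; line, median of 6 mice). In all panels but Ccl21a every litter A mouse lies above every litter B mouse, and for Cldn5, Pecam1 and Tek 1 Spry2IEKO mouse of litter A stands apart at the top.

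Genes of lymphatic endothelium were lower as well. Of 16 tested, on a list written with the values known, 9 fell, against 3.31% of all genes, and none rose, with a median of -0.67. Without the 2 mice with the most fat 1 was called and 10 had an unadjusted p under 0.05. Ccl21a, a chemokine that guides dendritic cells and lymphocytes into lymph vessels, measured 56.8 to 162 (median 109.95) in litter A and 6.24 to 75.4 (median 27.2) in litter B. The lowest mouse of litter A lay within litter B, and the log2 difference was -1.97 (standard error 0.453, adjusted p = 0.0344). Its reads cannot be separated with certainty from those of near-identical copies of the gene, and the gene is also made by the stroma of lymphoid follicles. Mmrn1, a protein of lymphatic endothelium, ran from 6.54 to 15.2 (median 10.03) in litter A and from 0.484 to 4.92 (median 2.75) in litter B, without overlap, and fell by 1.79 on the log2 scale (standard error 0.343, adjusted p = 0.0197). Reln, which lymphatic vessels secrete, fell by 1.39 (adjusted p = 0.0316), Flt4, the receptor of VEGF-C, by 1.16 (adjusted p = 0.0179) and Lyve1, the hyaluronan receptor of lymphatic capillaries, by 1.09 (adjusted p = 0.0310). Pdpn, shared by lymphatic endothelium and some fibroblasts, fell by 0.72 (adjusted p = 0.0395). Prox1, the transcription factor that defines lymphatic identity, was near the limit of 0.5 used for testing, at 0.653 to 1.38 in litter A and 0.375 to 0.831 in litter B, with a log2 difference of -0.46 (adjusted p = 0.147).

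A wider list of blood endothelium, which shares members with the first and was written with the values known, held 40 tested genes. Of these 22 fell, against 3.31% of all genes, none rose and 39 were lower, with a median of -0.78. Without the 2 mice with the most fat 1 was called and 27 had an unadjusted p under 0.05. Mmrn2, an extracellular partner of CD93 on vessels, measured 3.52 to 7.45 (median 4.98) in litter A and 1.19 to 2.43 (median 1.45) in litter B and fell by 1.45 on the log2 scale (standard error 0.190, adjusted p = 0.00611). Podxl, a sialomucin of the luminal surface, ran from 8.51 to 12.2 in litter A and from 2.62 to 5.84 in litter B, a difference of -1.21 (adjusted p = 0.0101). The litters were apart for both. Smaller falls without overlap were found for Emcn (-1.04), Adgrf5 (-0.99), Adgrl4 (-0.98), Plvap (-0.97), Ramp2 (-0.97), Cd93 (-0.91), Sox18 (-0.90) and Cd34 (-0.83), with adjusted p between 0.00861 and 0.0431. Eng, a co-receptor of TGF-beta, fell by 0.66 (adjusted p = 0.0454), and its litters overlapped between 6.84 and 7.11. Vwf, the clotting factor carrier of larger vessels, was not called at -0.71 (adjusted p = 0.131), its 6 values running from 4.60 to 11.6 in litter A and from 2.57 to 5.95 in litter B.

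Fibroblast and matrix genes were the other large group that was lower. Of 28 genes, all were lower in litter B and 16 fell, against 3.31% of all genes, with 13 without overlap and a median log2 difference of -0.73, or -0.66 in Spry2FF and -0.84 in Spry2IEKO mice. Their sum ran from 1223 to 1866 in litter A and from 723 to 1220.1 in litter B, so that the litters were separated by a narrow gap. Without the 2 mice with the most fat the median was -0.63 and 21 of 28 had an unadjusted p under 0.05, but none passed the adjusted threshold. Leaving out litter A replicate 4 alone left 8 calls, and litter B replicate 5 left 9. With quantile normalisation 27 of the 28 were lower and 15 fell.

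Among the matrix genes were the fibrillar collagens. Col3a1 (ENSMUSG00000026043, chromosome 1, 45311538 to 45349706), the collagen of loose connective tissue, measured 201 to 309 (median 243) in litter A and 97.7 to 153 (median 138) in litter B. No value of one litter reached the other, and the gene fell by 0.93 on the log2 scale (standard error 0.135, adjusted p = 0.00944). Col1a1, a chain of type I collagen, ran from 23.04 to 38.6 (median 28.7) in litter A and from 10.3 to 21.9 (median 16.4) in litter B, a difference of -0.89 (standard error 0.179, adjusted p = 0.0225). Its partner chain Col1a2 fell by 0.75 (adjusted p = 0.0197) with the litters overlapping between 47.3 and 49.1. The minor fibrillar chains Col5a1 and Col5a2 fell by 0.76 and 0.58 (adjusted p = 0.0199 and 0.0310) and Col12a1, which sits on fibrils, by 0.59 (adjusted p = 0.0257). Among all 30 collagen chains tested, a family chosen with the values known, 11 fell, against 3.31% of all genes, and none rose. Without the 2 mice with the most fat none was called and 14 had an unadjusted p under 0.05.

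Some collagens of the space around cells and of basement membranes were also among the genes that fell. Col6a1 and Col6a2, which form microfibrils together, fell by 0.75 and 0.91 (adjusted p = 0.0169 and 0.0148), and Col6a2 ran from 29.5 to 41.4 in litter A and from 11.8 to 25.6 in litter B. Col15a1, found where basement membranes meet the stroma, measured 12.8 to 26.2 (median 17.1) in litter A and 7.49 to 9.62 (median 8.83) in litter B, a log2 difference of -0.96 (standard error 0.157, adjusted p = 0.0125). Col4a1 and Col4a2, the chains of the sheet below epithelium and endothelium, fell by 0.68 and 0.61 (adjusted p = 0.0223 and 0.0421). Of 13 laminins and other basement membrane genes, on a list written with the values known, only Lama2 fell, by 0.69 (adjusted p = 0.0425), and 3.31% of all genes fell. When each mouse was rescaled to the same total 5 of the 13 fell. None was called with quantile normalisation or without the 2 mice with the most fat.

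Some genes of elastic fibres and of matrix processing also fell. Fbln5, which organises elastic fibres, ran from 6.12 to 8.94 (median 6.50) in litter A and from 2.04 to 4.60 (median 2.55) in litter B and fell by 1.20 on the log2 scale (standard error 0.176, adjusted p = 0.00952). The litters were separate. Fbln1 (-1.13, adjusted p = 0.0199), Ltbp4 (-0.95, adjusted p = 0.0164) and Eln, elastin itself (-0.92, adjusted p = 0.0442), were the other elastic fibre genes called. In all 4 of 17 fell, against 3.31% of all genes, on a list written with the values known. None was called without the 2 mice with the most fat, and 7 were when each mouse was rescaled to the same total. Mmp2, a gelatinase made by fibroblasts, measured 23.1 to 36.2 (median 31.0) in litter A and 13.1 to 18.1 (median 15.3) in litter B (log2 difference -0.92, adjusted p = 0.00611). Ctsk, a protease that cuts collagen, fell by 0.93 (adjusted p = 0.00712), Loxl2, which cross-links collagen, by 0.75 (adjusted p = 0.0123) and Timp2, an inhibitor of metalloproteases, by 0.72 (adjusted p = 0.0330). Of 29 genes of collagen processing and degradation, on another list written with the values known, 6 fell, against 3.31% of all genes. None was called without those 2 mice, and 10 were when each mouse was rescaled to the same total. Thbs1, a matrix protein that activates TGF-beta, fell by 0.59 (adjusted p = 0.00952) and Sparc, a collagen-binding protein, by 0.77 (adjusted p = 0.0211), both without overlap. Fn1, fibronectin, which epithelium and blood-derived cells also make, was among those that did not move with the group, at 84.2 to 169.6 in litter A and 85.2 to 158 in litter B (log2 difference -0.14, adjusted p = 0.687).

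**Figure D3:**
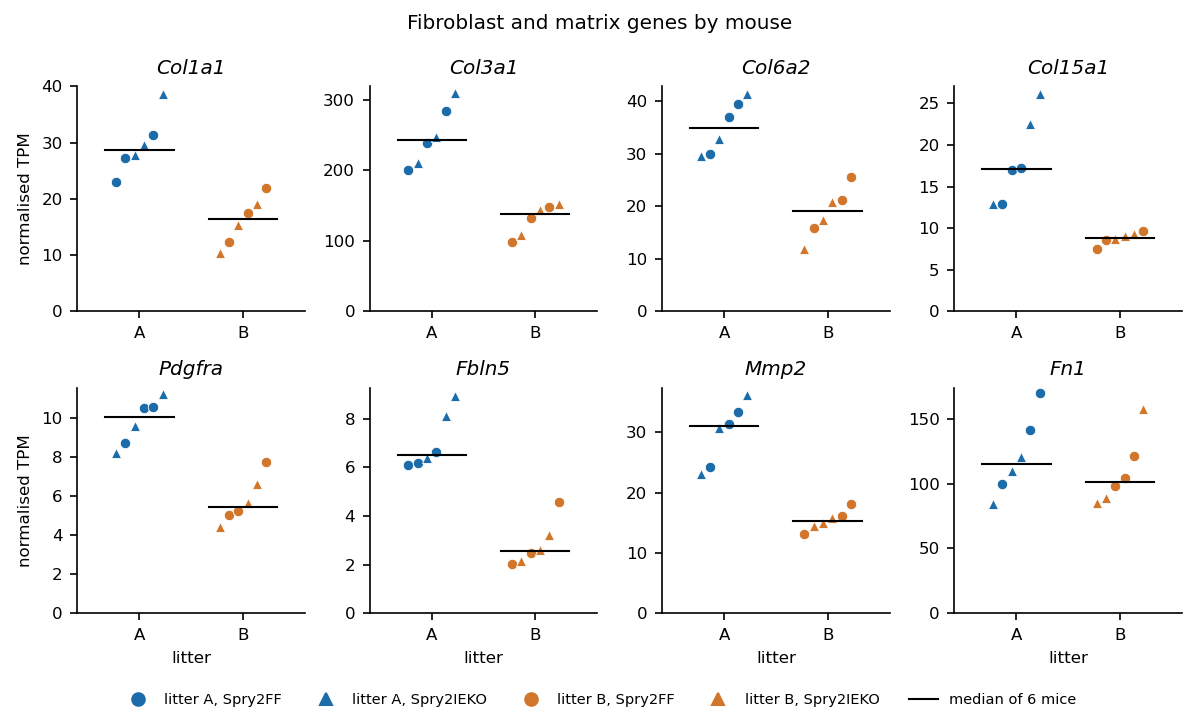
Normalised TPM of 8 fibroblast and matrix genes in each mouse, by litter (circles, Spry2FF; triangles, Spry2IEKO; line, median of 6 mice). The litters are separate in every panel but that of Fn1, where litter A runs from 84.2 to 169.6 and litter B from 85.2 to 158.

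Receptors and signals of the stroma were among the genes that fell. Pdgfra and Pdgfrb, the PDGF receptors of fibroblasts and of pericytes and fibroblasts, fell by 0.73 and 0.71 (adjusted p = 0.0167 and 0.0164). None of the 4 PDGF ligands was called. Over the 6 genes of the family, on a list written with the values known, 5 were lower and 4 had an unadjusted p under 0.05. For 3 of them the litters did not overlap, so that lower values were not confined to the receptors. Tcf21, a transcription factor of mesenchymal precursors, had the smallest p-value of any gene that fell and measured 12.98 to 16.6 (median 14.5) in litter A and 7.26 to 8.50 (median 8.05) in litter B. The gap between its litters was wider than the range inside either of them, and it fell by 0.84 on the log2 scale (standard error 0.0771, adjusted p = 0.00246). Of 30 stromal niche genes, on a list written with the values known, 6 fell, against 3.31% of all genes, and none rose, with a median of -0.36. When each mouse was rescaled to the same total 10 fell, and without the 2 mice with the most fat Tcf21 alone was called. Wnt5a, a Wnt ligand of stromal cells, fell by 0.73 (adjusted p = 0.02004), Wnt2b, another stromal Wnt ligand, by 1.13 (adjusted p = 0.0212) and Bmp6 by 0.73 (adjusted p = 0.0285). For these 3 genes the litters did not overlap. Ntn1, netrin-1, a guidance cue made by vessels and stroma, ran from 5.19 to 7.01 in litter A and from 2.38 to 3.72 in litter B and fell by 0.98 (standard error 0.114, adjusted p = 0.00497).

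Other parts of the wall showed few calls. Of 21 smooth muscle genes limma called none and none had an unadjusted p under 0.05. Their sum ran from 7249 to 12787 in litter A and from 6151 to 15375 in litter B. Of 24 enteric neuron genes (median -0.09) and 13 enteric glia genes (median -0.17) limma called none, with 2 and 1 at an unadjusted p under 0.05. All 6 tested genes of interstitial cells of Cajal were lower (median -0.34), and 3 had an unadjusted p under 0.05. Only Gja1, a gap junction gene that other wall cells share, was called and fell by 0.68 (adjusted p = 0.0257). Of 9 pericyte genes, on a list written with the values known, 8 were lower (median -0.35) and 5 had an unadjusted p under 0.05. Pdgfrb alone was called, against 3.31% of all genes that fell, and 3 were called when each mouse was rescaled to the same total. Whether the endothelial and matrix lists differ from the muscle lists was not tested.

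**Figure D4:**
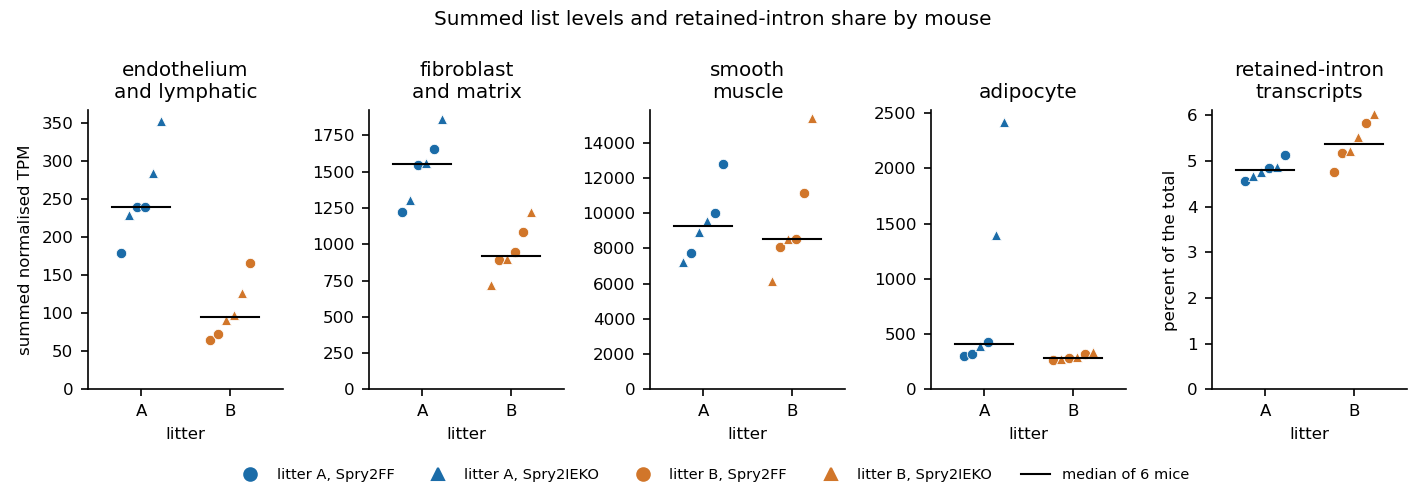
Summed normalised TPM of 4 gene lists, and the percent of each mouse's total in transcripts annotated as retaining an intron, for each mouse by litter (circles, Spry2FF; triangles, Spry2IEKO; line, median of 6 mice). Endothelial sums run from 65.4 to 167 in litter B and from 179.8 to 352 in litter A, smooth muscle overlaps, and 2 Spry2IEKO mice of litter A stand apart in the adipocyte panel.

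Most immune and fat genes were lower, with few calls. Of 15 B cell genes 14 were lower (median -0.62) and of 12 T cell genes all were lower (median -0.41), with none called by limma and none at an unadjusted p under 0.05, and of 19 macrophage and dendritic cell genes 17 were lower (median -0.52), with 10 at an unadjusted p under 0.05 (3 without the 2 mice with the most fat) and 1 gene called. That gene was Cd68, a lysosomal protein of macrophages, which fell by 0.87 (adjusted p = 0.0257). B cell genes summed to between 8.28 and 580.3 in litter A and to between 8.67 and 247 in litter B, so that mice differed far more inside each litter than the litters did. The constant segments Igkc and Igha, made by plasma cells, differed by -1.15 and -0.86 (adjusted p = 0.293 and 0.372). All 18 tested adipocyte genes were lower with a median of -1.03, none called by limma and 6 at an unadjusted p under 0.05. The median was -0.23 without the 2 mice with the most fat. Fabp4, a fatty acid binding protein of fat and of some endothelium, showed this most plainly, at 19.7 to 594 in litter A and 18.6 to 33.4 in litter B (adjusted p = 0.129).

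Variable segments of immunoglobulin genes had the largest falls of all named genes. Of 180 tested segments 10 fell (3.31% of all genes did) and none rose, with a median of -0.96. When each mouse was rescaled to the same total 22 fell, and with quantile normalisation 7 did. The 5 largest falls of the named genes were all among these segments. Ighv6-6 measured 12.1 to 65.6 (median 18.7) in litter A and 0 to 7.38 (median 1.92) in litter B and fell by 3.61 on the log2 scale (standard error 0.715, adjusted p = 0.0213). Ighv9-4 ran from 2.78 to 19.4 in litter A and was listed at 0 in 4 of the 6 mice of litter B, with 0.890 and 1.34 in the other 2. Igkv4-57-1 (-2.95), Igkv14-111 (-2.79) and Ighv1-18 (-2.28) were the others (adjusted p = 0.0275, 0.0423 and 0.0153). None of the 166 segments tested without the 2 mice with the most fat was called. These segments are short, many are near-identical, and each plasma cell uses 1 heavy and 1 light segment, so that reads can be shared between segments and a level can rest on few clones. Pakap, which like Ighv9-4 had a mean under 0.5 in litter B and above 2 in litter A, fell by 1.53 (adjusted p = 0.0341).

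Genes of splicing regulation formed the list with the most members that rose in litter B. Of 47 regulators on a list written with the values known, 20 rose, against 1.08% of all genes, and 15 had no overlap between litters, against 0.781%. One, Dyrk1a, fell. The median log2 difference was 0.27, with 0.26 in Spry2FF and 0.28 in Spry2IEKO mice, and 45 of 47 were higher. The sum over all 48 genes of the list, tested or not, ran from 4754 to 5455 in litter A and from 5531 to 6762 in litter B. Without the 2 mice with the most fat the median was 0.30, 3 rose and 35 had an unadjusted p under 0.05, as many as with all mice. Leaving out litter A replicate 4, litter B replicate 3 or litter B replicate 5 left 11. Rescaling each mouse to the same total left 18 that rose, with a median of 0.19, and quantile normalisation left 22.

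CLK kinases and SR proteins were among them. Clk1 (ENSMUSG00000026034, chromosome 1, 58410189 to 58424066), a kinase that phosphorylates SR proteins, measured 100 to 149 (median 129) in litter A and 152 to 217 (median 193) in litter B. Its litters were apart by a small margin, and it rose by 0.54 on the log2 scale (standard error 0.0883, adjusted p = 0.0123). Clk4, a close relative, rose by 0.53 (adjusted p = 0.0191). Srsf5 ran from 293 to 352 in litter A and from 421 to 545 in litter B and rose by 0.54 (standard error 0.0690, adjusted p = 0.00585). Srsf11 rose by 0.56 (adjusted p = 0.00576) and Srsf2 by 0.36 (adjusted p = 0.0231). In both litters the levels of these SR protein genes stayed above 100 in every mouse.

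Cofactors of the same machinery rose by similar amounts. Arglu1, a coactivator that binds splicing factors, measured 48.5 to 62.4 (median 51.9) in litter A and 67.1 to 88.5 (median 80.9) in litter B, a log2 difference of 0.59 (standard error 0.0725, adjusted p = 0.00583). Prpf38b, a protein of the spliceosome before its activation, ran from 71.3 to 79.7 in litter A and from 93.3 to 120.1 in litter B and rose by 0.53 (standard error 0.0594, adjusted p = 0.00497). Both were clear of overlap. The cyclins Ccnl1 and Ccnl2 rose by 0.62 and 0.43 (adjusted p = 0.0101 and 0.0123), Fnbp4 by 0.63 (adjusted p = 0.00585), Pnisr by 0.60 (adjusted p = 0.0142), Prpf39 by 0.52 (adjusted p = 0.0326), Srrm2 by 0.45 (adjusted p = 0.0212), Luc7l2 by 0.39 (adjusted p = 0.0170) and Son by 0.36 (adjusted p = 0.0297). Dyrk1a, a kinase that phosphorylates SR proteins as CLK kinases do, fell by 0.27 (adjusted p = 0.0379).

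Among RNA-binding proteins of the hnRNP family, which was chosen with the values known, 7 of 20 rose, against 1.08% of all genes. None fell, and the median was 0.20. When each mouse was rescaled to the same total 5 rose, with a median of 0.12. Without the 2 mice with the most fat none was called and 11 had an unadjusted p under 0.05, as many as with all mice. Hnrnpa2b1 measured 567 to 647 in litter A and 728 to 938 in litter B and rose by 0.47 (standard error 0.0677, adjusted p = 0.00884). Hnrnpdl and Hnrnph1 rose by 0.50 and 0.49 (adjusted p = 0.0123 and 0.0292). The core of the spliceosome held fewer calls. Of 37 proteins of the small nuclear ribonucleoproteins and their partners, 2 rose and 1 fell, against 1.08% and 3.31% of all genes. This list, too, was written with the values known. Sf3b1 (0.30, adjusted p = 0.0420) and Lsm8 (0.34, adjusted p = 0.0319) rose, and Prpf8 fell (-0.24, adjusted p = 0.0418). When each mouse was rescaled to the same total none rose, and the median of 0.02 became -0.06.

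**Figure D5:**
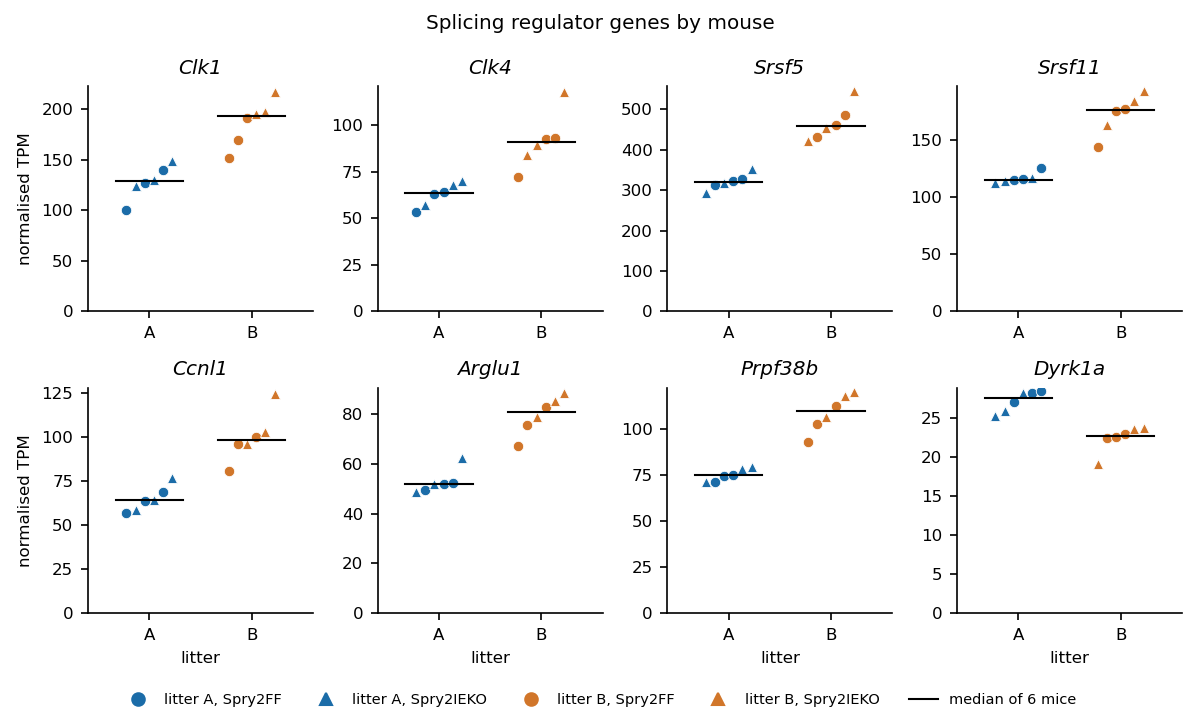
Normalised TPM of 8 splicing regulator genes in each mouse, by litter (circles, Spry2FF; triangles, Spry2IEKO; line, median of 6 mice). Litter B lies above litter A without overlap in all panels but the last, Dyrk1a, where litter A lies above litter B.

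The rise of these genes was larger in transcripts annotated as retaining an intron, which carry part of an unspliced intron and do not encode the full protein. For the 18 regulators that rose and have transcripts of both kinds, the median log2 difference was 0.69 in retained-intron transcripts and 0.19 in coding transcripts, and in all 18 the former was larger. Retained-intron transcripts of Srsf5 ran from 120.2 to 145 in litter A and from 163 to 235 in litter B, without overlap, while its coding transcripts ran from 116 to 161 and from 129 to 192. In Srsf11 the retained-intron transcripts measured 59.2 to 74.3 in litter A and 94.1 to 143 in litter B, and its coding transcripts differed by -0.05. Clk1 had retained-intron transcripts at 29.2 to 44.4 in litter A and at 53.3 to 76.9 in litter B.

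This was not restricted to splicing genes. Over 5152 genes with both kinds of transcript, the median log2 difference was 0.30 for retained-intron and -0.09 for coding transcripts, and the former was larger in 82.2% of them. Retained-intron transcripts took 4.56% to 5.12% of the total in litter A and 4.75% to 6.03% in litter B (exact permutation test over 924 divisions of the mice, two-sided, p = 0.0173), with 1 mouse of litter B inside the range of litter A. Unprocessed pseudogenes, most of whose signal came from Gm29216, a copy of mitochondrial sequence on chromosome 1 that rose by 0.38 (adjusted p = 0.0344), took 1.46% to 1.78% in litter A and 1.85% to 2.04% in litter B, without overlap (exact permutation test, p = 0.00216, the smallest it can give). Genes encoded by the mitochondrial genome took 15.6% to 22.3% and 19.999% to 23.9% (exact permutation test, p = 0.0476, or p = 0.05 with mice exchanged only within genotype). Reads of the copy and of the mitochondrial genes can be exchanged. Gm44223, another unprocessed pseudogene, rose by 0.61 (adjusted p = 0.0142).

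Differences also moved with transcript length. When genes were split by length into 5 equal parts, the median log2 difference in the shortest was 0.05, with 41 higher and 31 lower calls, and in the longest it was -0.15, with 26 higher and 230 lower. Median transcript length was 3328 bases for the endothelial list, 4061 for the matrix list, 2720 for splicing regulators and 2379 for all genes. The part of length or of the retained-intron share in the results above was not tested, although no gene was called when the retained-intron share entered the fit beside genotype. In that fit the median of the endothelial list was -0.86, with 15 of 18 genes at an unadjusted p under 0.05 against 18 without the term. The matrix list had a median of -0.49, with 17 of 28 against 24, and the splicing regulators had 0.21, with 23 of 47 against 35.

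Clock and hormone-responsive genes gave a few calls. Per2, a repressor of the circadian clock, measured 11.1 to 18.7 (median 14.8) in litter A and 19.0 to 24.9 (median 22.5) in litter B and rose by 0.58 (standard error 0.122, adjusted p = 0.0262). The litters came close but did not overlap. Per3 had no overlap between litters either but missed the threshold at 0.49 (adjusted p = 0.0532), and Per1 differed by 0.34 (adjusted p = 0.210). The median over 19 clock genes was 0.11, and the hour of dissection was not given. Sgk1, a kinase induced by mineralocorticoids and glucocorticoids that raises sodium uptake, had 59.4 to 209.9 in litter A and 140.4 to 437 in litter B and rose by 0.96 (standard error 0.237, adjusted p = 0.0429), a call kept in 2 of the 12 fits that each leave out 1 mouse. Of 16 glucocorticoid-response genes, 8 higher and 8 lower, it was the only one that rose, and Lcn2 the only one that fell.

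Epithelial lists held few calls, although nearly all goblet cell genes were lower. Of 23 genes of absorptive colonocytes 2 rose and 1 fell, against 1.08% and 3.31% of all genes. On this list 10 had an unadjusted p under 0.05, and the median was -0.01. Without the 2 mice with the most fat none was called and 9 were at an unadjusted p under 0.05. Car2, a carbonic anhydrase of surface cells, measured 842 to 1089 in litter A and 1249.5 to 1491 in litter B and rose by 0.42 (standard error 0.0707, adjusted p = 0.0142), without overlap. Muc3, a membrane mucin, ran from 1303 to 2107 in litter A and from 1906 to 3142 in litter B and rose by 0.72 (adjusted p = 0.0212). Guca2a, the precursor of guanylin, fell by 0.57 (adjusted p = 0.0264). Of 20 goblet cell genes 19 were lower, with a median of -0.29, and 11 had an unadjusted p under 0.05. Fer1l6, of the same list, was its only call and fell by 0.71 (adjusted p = 0.0148). When each mouse was rescaled to the same total 8 goblet cell genes fell, and without the 2 mice with the most fat none was called, 9 had an unadjusted p under 0.05 and the median was -0.31. Lists of tuft (19 tested), enteroendocrine (21), stem and Wnt target (18) and cell cycle genes (31) held no call by limma, with 1, 0, 7 and 1 genes at an unadjusted p under 0.05. Egfr and Met, growth factor receptors of the epithelium and of other cells, fell by 0.52 and 0.44 (adjusted p = 0.0112 and 0.0155), each without overlap.

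A few enzymes of xenobiotic and lipid metabolism were called. Gsta4, a glutathione transferase that clears lipid peroxidation products, measured 38.3 to 66.8 in litter A and 67.9 to 116 in litter B and rose by 0.70 (adjusted p = 0.0344). Ugt1a1, which conjugates bilirubin and drugs and shares exons with the other Ugt1a genes, rose by 0.62 (adjusted p = 0.0275). These were the 2 called of 32 genes, and 1.08% of all genes rose. The list had a median of 0.12, or 0.04 when each mouse was rescaled, and no call without the 2 mice with the most fat. Cyp2d12, of a cytochrome family with near-identical members, rose by 0.81 (adjusted p = 0.0297). In fatty acid synthesis 3 of 17 genes fell and none rose, against 3.31% of all genes. The median was -0.46, with -0.10 in Spry2FF and -0.71 in Spry2IEKO mice, and without the 2 mice with the most fat, both Spry2IEKO, it was -0.20 with no call. The genes called were Acaca, the enzyme that commits carbon to the pathway (-0.73, adjusted p = 0.0199), Elovl6, which lengthens fatty acids (-0.61, adjusted p = 0.0336), and Fads2, a desaturase (-0.47, adjusted p = 0.0304). The list is one that fat tissue also uses. Acaca ran from 13.1 to 24.8 in litter A and from 8.71 to 11.6 in litter B.

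Further named genes were in no list or in lists with few calls. Ppil6 measured 2.49 to 4.68 in litter A and 6.44 to 10.2 in litter B and rose by 0.95 (standard error 0.145, adjusted p = 0.0101). Olfr78, a receptor for short-chain fatty acids, ran from 7.13 to 9.71 and from 9.88 to 19.9 and rose by 0.83 (adjusted p = 0.0142). Scp2-ps2, a pseudogene, was the largest named rise at 1.32 (adjusted p = 0.0101) and stayed at or below 1.47. Adam1a (0.79), Slc5a9, a sugar transporter (0.66), and Fam76b (0.60) rose without overlap too (adjusted p = 0.0257, 0.0332 and 0.00952). Lcn2, an iron-binding antimicrobial protein, measured 0.957 to 3.07 in litter A and 0.147 to 0.627 in litter B and fell by 1.39 (standard error 0.236, adjusted p = 0.0144), the only call of 22 microbe-responsive epithelial genes. Hoxd13, the Hox gene of the most distal gut, measured 118 to 159.5 in litter A and 158 to 190.2 in litter B and rose by 0.36 (adjusted p = 0.0248), and it was the only call of 25 Hox genes. Sel1l, of the degradation of misfolded proteins, fell by 0.28 (adjusted p = 0.0244), the only call of 17 genes of the unfolded protein response.

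Lists that describe responses of the tissue as a whole held no call by limma. They were the immediate early genes (19 tested, 2 at an unadjusted p under 0.05), heat shock (16 and 3), interferon-stimulated genes (30 and 5), MHC class I (20 and 2) and class II (11 and 0), nuclear oxidative phosphorylation (50 and 6) and fatty acid oxidation and ketogenesis (24 and 4). The same held for replication-dependent histones (17 and 2) and for targets and feedback genes of Sprouty signalling (17 and 3). MHC class II genes, which present antigen, were lower in 11 of 11 with a median of -0.65.

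Whether the litter difference depended on genotype was tested by an interaction term. Only 2 genes passed (0.0126% of those tested), and 665 had an unadjusted p under 0.05. Both are processed pseudogenes of low and all-or-none signal. Gm44478, at position 128642999 to 128643112 of chromosome 6, was listed at 0 in 9 mice and at 10.99, 12.9 and 13.9 in the 3 Spry2FF mice of litter B. Gm9385, at position 116040593 to 116041064 of chromosome 9, was listed at 2.18 to 3.88 in the Spry2IEKO mice of litter A, at 2.21 to 2.47 in the Spry2FF mice of litter B and at 0 in the other 6 mice.

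Calls were found on every chromosome but Y, and some regions held many. From 15000001 to 20000000 on chromosome 6, 5 of 11 tested genes were called (45.5%, against 4.38% of all genes), Lsm8 and Met among them. From 90000001 to 95000000 on chromosome 1, 9 of 45 were called (20%), Per2 among them. Whether calls cluster was not tested. The share of tested genes called ran from 2.73% on the X chromosome to 5.65% on chromosome 1 among chromosomes with calls, and none of 13 genes of the Y chromosome was called.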

How the data were processed

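Full-thickness distal colon of 12 mice had been sequenced as RNA. The authors deposited 1 table of transcripts with 1 signal value per mouse, which is a TPM estimate from kallisto (the labels also name CASAVA, sleuth and mm10) scaled once more between mice by the authors. The values are not counts, so the read depth is unknown and no counting interval can be given. The labels and the study's methods differ on paired-end or single-end reads. The table's own columns of p-values and q-values hold the authors' genotype comparison and were not used.

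Of 113974 entries, 781 repeats of a transcript were dropped and the values were summed per gene symbol, after 27 symbols that had been turned into dates were restored from their identifiers. The test took genes whose mean reached 0.5 and ran on log2(signal + 0.5) with limma 3.58.1 in R 4.3.3 (moderated with a trend, Benjamini-Hochberg adjustment over all genes, threshold 0.05), with genotype as a covariate. Fold changes on this scale understate the change of low genes. Totals and shares were compared by exact permutation tests, two-sided, over all 924 divisions of the 12 mice into 6 and 6. Positions and transcript classes came from GENCODE M21 on GRCm38, and promoters from RefSeq. The script was tested on simulated data.

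Named genes were those called without overlap between litters with the 12 largest rises and 12 largest falls (predicted genes only counted), up to 4 called members of each list by p, and called genes near 0 in one litter. Members of lists with no call are given by counts, and some results under this rule are not reported here. Further genes and lists were chosen after their values were seen, and most of these lists are given above as written with the values known. They include the lists of collagens, basement membrane, elastic fibres, collagen processing, pericytes and the PDGF family. They also include the lists of vascular ligands, immunoglobulin segments, hnRNP proteins and the spliceosome core. The comparison and all lists were chosen with earlier results of these data known. Nothing in the labels says how the mice of a litter were housed or processed, so p-values measure only the spread between these mice. Alternatives changed the pseudocount, the filter, the covariates, the scaling and the mice.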

Additional observations from a re-analysis of the deposited data

Results flagged for a closer look

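In groups of 6 mice, 1 value was set apart from the other 5 by more than Dixon's limit in 24 of 304 groups examined, where chance gives about 1 in 20. No explanation of these values was tested.

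In litter A replicate 3, a Spry2IEKO mouse with much fat, Pecam1 measured 42.6 against 20.2 to 27.3 in the other 5 mice of its litter, Cldn5 6.90 against 3.67 to 4.08, Tek 5.45 against 2.54 to 3.58 and Arglu1 62.4 against 48.5 to 52.4. The same mouse had Igkc at 3470.4 against 334 to 1342, and immunoglobulin constant, joining and variable segments took 0.586%, 0.106% and 0.575% of its total, where the highest of the others were 0.224%, 0.0339% and 0.219%. In litter A replicate 4, the other mouse with much fat, Fbln1 was 32.9 against 15.5 to 21.8, Lyve1 27.3 against 12.3 to 17.1 and Ighv1-18 35.7 against 3.49 to 15.2.

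In litter A replicate 6, Angpt1 was 0.881 against 1.25 to 1.45 and Per1 was 19.2 against 14.2 to 15.5, and in litter A replicate 1 Srsf11 was 126 against 112 to 117. In litter B replicate 2, Cyp2d12 was 199 against 101 to 116, Dyrk1a 19.1 against 22.4 to 23.7 and Lsm8 74.2 against 56.0 to 62.8, and 18655 genes were above 0 against 19498 to 19699. In litter B replicate 6, Ltbp4 was 33.1 against 12.97 to 19.8 and Mmrn2 2.43 against 1.19 to 1.57. Reln was 0.315 in litter B replicate 3 against 2.41 to 2.73, and transcribed processed pseudogenes took 0.157% of that mouse's total against 0.231% to 0.249%. Per3 was 53.1 in litter B replicate 4 against 27.3 to 32.2, and Ugt1a1 was 75.8 in litter B replicate 5 against 47.8 to 56.3.

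The litter difference depended on genotype by the interaction term for Gm44478 (-4.70 on the log2 scale, Spry2IEKO minus Spry2FF) and Gm9385 (-5.19), both with an adjusted p of 7.75e-05 by limma.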

How the results depend on the processing

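Other pseudocounts, no covariate, sex as a further covariate, eBayes without a trend and repeated entries kept left the counts of calls over all genes and over the endothelial and matrix lists within 1.5 times the value given, and without a trend Dyrk1a was among the genes that lost their call. Without a filter 422 genes were called, 97 higher and 325 lower, 10 of them endothelial, and with a mean of at least 2 no gene had an interaction. Rescaling each mouse to 1000000 shifted the median of all genes to -0.12 and gave 1456 calls, 105 higher and 1351 lower, so that 7.21% of calls were higher against 24.6%, and quantile normalization gave 43.8% with 268 lower. Spry2FF mice alone, Spry2IEKO mice alone and females alone each gave 1 call, 1 higher and 0 lower, with 0 endothelial and 0 matrix genes, and females alone gave 0 interactions. The settings that follow were added after seeing the data. Without the 2 mice with the highest adipocyte score 17 genes were called, 3 higher and 14 lower, with 1 endothelial and 0 matrix genes and 7 interactions. With the adipocyte score as a covariate 3 were called, 0 higher and 3 lower, and with the retained-intron share 0 were called (1584 at an unadjusted p under 0.05), with 0 endothelial and 0 matrix genes in both. The cause was not tested. Leaving out 1 mouse at a time gave 180 to 957 calls, 45 to 235 higher and 135 to 722 lower, with 5 to 16 endothelial genes, 8 to 20 matrix genes and 2 to 5 interactions, and 155 genes were called in all 12 such fits. Of 119 called genes named here, 56 kept their call in all 12, while Col4a2 and Lama2 kept it in 1, and Sgk1, Igkv14-111, Sec61a1, Eln, Plvap, Pdpn, Dyrk1a, Prpf8 and Sf3b1 in 2. Fn1 reversed to 0.034 in Spry2IEKO mice alone. An exact permutation test that exchanged mice only within genotype gave p = 0.03 for the totals and 0.87 for the genes above 0. No paired analysis was possible because the replicate numbers in the labels do not link mice of one litter to mice of the other. Since depth is unknown, low genes carry an error that could not be stated.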

Other observations

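Genes that add sugars to proteins were mostly lower in litter B, on lists written with the values known. Of 42 genes of entry into the endoplasmic reticulum and N-glycosylation 39 were lower, with a median log2 difference of -0.17. Of these 10 fell, against 3.31% of all genes, and none rose. When each mouse was rescaled to the same total 19 fell, with a median of -0.25, and with quantile normalisation 8 did. None was called without the 2 mice with the most fat, when 22 had an unadjusted p under 0.05, as many as with all mice. Man2a1, a Golgi mannosidase, measured 30.6 to 40.8 (median 35.9) in litter A and 22.4 to 26.2 (median 24.8) in litter B and fell by 0.51 (standard error 0.0758, adjusted p = 0.00952). Uggt1, which senses unfolded glycoproteins, fell by 0.37 (adjusted p = 0.0148), Rpn1, of the complex that transfers the first glycan, by 0.35 (adjusted p = 0.0257) and Mgat5, which adds branches, by 0.34 (adjusted p = 0.0148). The litters were separate for these 4 genes. Sec61a1, of the channel through which proteins enter, fell by 0.22 (adjusted p = 0.0498) with the litters overlapping.

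Of 30 genes of mucin-type O-glycosylation 28 were lower, 10 fell, against 3.31% of all genes, and 1 rose, with a median of -0.25. When each mouse was rescaled to the same total 15 fell, and with quantile normalisation 6 did. B3galt5, a galactosyltransferase, ran from 182 to 194 (median 188) in litter A and from 123 to 146 (median 134) in litter B and fell by 0.50 (standard error 0.0497, adjusted p = 0.00286), and it was the only call of the list without the 2 mice with the most fat. Galnt10, which starts such chains, fell by 0.54 (adjusted p = 0.0142). St6galnac2, a sialyltransferase, rose by 0.39 (adjusted p = 0.0449) with the litters overlapping.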
